A study of Mus musculus with 6 samples.

Results

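The CD4, regulatory and lineage-choice genes examined here were Cd4, Zbtb7b, Runx3, Foxp3, Ikzf2, Cd40lg and Zbtb16. They were chosen by name, and all 7 were found by symbol among the 28773 gene IDs measured by RNA-seq. The RNA came from CD8+ T cells that were taken from the spleen by a CD8+ isolation kit on day 35. The 3 MWA+PBS samples came from tumor-bearing mice given microwave ablation (MWA) of the tumor and the PBS vehicle. The 3 MWA+2DG samples came from mice given the same ablation and 2-deoxy-D-glucose (2DG), a glucose analogue that inhibits glycolysis, in injections that ended before day 35. Ablation was thus shared by both groups, and a group without it was not analysed here. All mice of the study were female. The labels give neither the strain, age or tumor line of these samples nor whether each sample was a separate mouse, so p-values measure only the spread between these samples, which may be technical.

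Mature T cells that see antigen on MHC class II carry the co-receptor CD4, and those that see it on MHC class I carry CD8. In the thymus the choice is made by opposing transcription factors. ThPOK, encoded by Zbtb7b, drives the CD4 helper fate, while Runx3, acting with its partner Cbfb, silences Cd4 and Zbtb7b and sustains the CD8 cytotoxic fate. Foxp3 defines regulatory T cells, most of which also carry Helios, encoded by Ikzf2. Cd40lg encodes the ligand with which helper T cells activate CD40 on B cells and antigen-presenting cells. Zbtb16 encodes PLZF, the factor of innate-like T cells such as natural killer T cells.

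Values are FPKM, in which fragments are divided by the length of the transcript and the size of the library, so that they can be compared between genes. In MWA+PBS, Runx3 was the highest of the 7 genes at 46.4 ± 9.29 FPKM (SD, n = 3), above 93.8% of the tested genes. Zbtb7b followed at 4.57 FPKM, then Cd4 at 2.75, Ikzf2 at 2.50, Zbtb16 at 1.56, Cd40lg at 1.35 and Foxp3 at 0.55. In that order Cd4 and Ikzf2 overlapped between samples, as did Zbtb16 and Cd40lg, and the other neighbours did not. In MWA+2DG the order was Runx3 at 31.7 FPKM, Zbtb7b at 2.91, Ikzf2 at 2.15, Cd4 at 1.66, Cd40lg at 1.49, Zbtb16 at 0.95 and Foxp3 at 0.59. There Cd4 overlapped with Cd40lg, and Zbtb16 with Foxp3. The defining markers of CD8+ T cells were present in all 6 samples, with Cd8a at 225.8 to 377.1 FPKM, Cd8b1 at 319.8 to 507.5 FPKM and Cd3e at 88.7 to 142.1 FPKM.

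**Figure D1:**
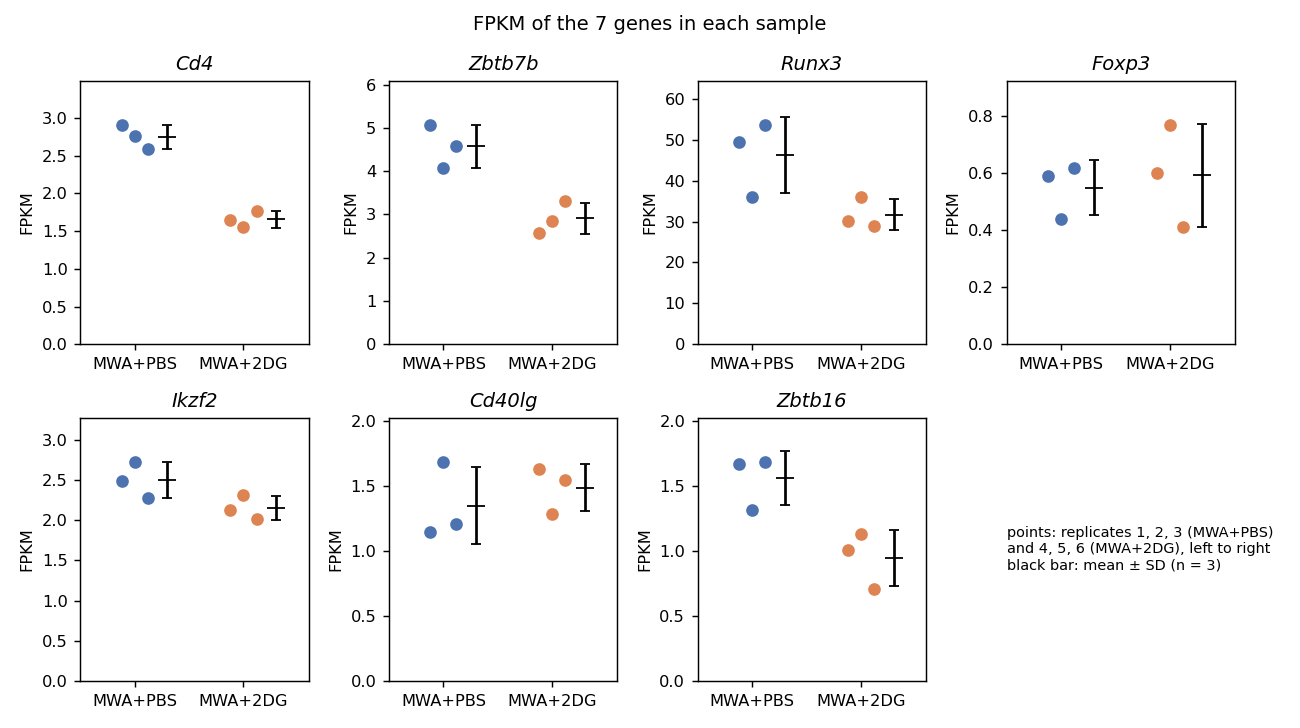
FPKM (linear axis from 0, a separate scale for each gene) of the 7 genes in the 3 MWA+PBS samples (blue) and the 3 MWA+2DG samples (orange), with mean ± SD in black. The groups of Cd4, Zbtb7b and Zbtb16 do not overlap, and those of Runx3, Foxp3, Ikzf2 and Cd40lg do.

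The groups were compared with limma on log2(FPKM + 1) over the 12444 genes with a mean FPKM of at least 1, so fold changes understate the change of low genes. Foxp3 did not pass this filter. Zbtb16 passed it only through its MWA+PBS values, with a mean of 1.56 FPKM there and 0.95 in MWA+2DG. Without a filter Zbtb16 was not called (limma adjusted p = 0.0862). Of the 6 genes tested, Cd4, Zbtb7b, Runx3 and Zbtb16 were lower in MWA+2DG at an adjusted p under 0.05, and Ikzf2 and Cd40lg did not pass. Of all tested genes 39.4% were called at this threshold, 17.1% lower and 22.3% higher. The study used a P under 0.05 and a log fold change past 0.25, with no base stated. Read as log2, the same 4 genes were called, beside 38.2% of all tested genes (16.6% lower). The median log2 fold change of the 6 genes was -0.45, beside 0.05 over all tested genes. Groups did not overlap for 3 of the 7 genes, each of them lower in MWA+2DG, beside 52.1% of all tested genes (21.9% lower). In bulk RNA, fewer cells of a type and less RNA per cell cannot be told apart. Since T lineage markers were higher in MWA+2DG, the fit was repeated with the FPKM scaled to them, with the filter and, for Foxp3, without it. The other settings were not combined with this scaling. It took the median over all tested genes from 0.05 to -0.31 (log2). On that scale 57.7% of all tested genes were lower and 5.29% higher, which is the background for every count given with it. This is called T scaling. Where it turned the direction of one of the 7 genes, of a gene named from a list or of a list median, its value is given too. Genes named only for their correlation with the 7 genes were left out of this.

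Cd4 and the lineage switch were compared first. Cd4 (ENSMUSG00000023274) had FPKM of 2.91, 2.76 and 2.59 with MWA+PBS, against 1.65, 1.55 and 1.77 with MWA+2DG. Every MWA+2DG sample was below every MWA+PBS sample, and the ratio of the means was 0.602. On the log2 scale the change was -0.50 with an SE of 0.08 and a limma adjusted p of 0.00252. This call held under each of the 16 alternatives run, with log2 fold changes from -0.78 to -0.47. Cd4 was low throughout, at a level above only 24.5% of the tested genes in MWA+PBS.

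Zbtb7b (ENSMUSG00000028042) had FPKM of 5.07, 4.07 and 4.58 with MWA+PBS, against 2.57, 2.85 and 3.30 with MWA+2DG, again without overlap. The change was -0.51 on the log2 scale, with an SE of 0.10 and a limma adjusted p of 0.00591, and this call also held under each of the 16 alternatives, with values from -0.84 to -0.44. Runx3 (ENSMUSG00000070691), the factor of the opposite fate, had FPKM of 49.6, 35.9 and 53.7 with MWA+PBS, against 30.1, 36.1 and 28.9 with MWA+2DG. MWA+PBS replicate 2 lay just below MWA+2DG replicate 5, so the groups overlapped. The log2 change of Runx3 was -0.52, with an SE of 0.15 and a limma adjusted p of 0.0291. That call was lost without MWA+PBS replicate 1 (adjusted p = 0.0886) or 3 (0.0801), without MWA+2DG replicate 4 (0.0842) or 6 (0.0884), and without a filter on low values (0.0801).

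Both sides of the switch thus had lower means in MWA+2DG, and their proportion was examined next as the ratio of their FPKM within a sample, which does not depend on how a library is scaled. The Zbtb7b over Runx3 ratio was 0.102, 0.113 and 0.0854 in MWA+PBS and 0.0855, 0.0789 and 0.114 in MWA+2DG. The range of MWA+PBS lay inside that of MWA+2DG, with a log2 difference of -0.12 and an exact permutation p of 0.8 (two-sided, n = 3 per group). Leaving out 1 sample at a time gave differences from -0.28 (without MWA+2DG replicate 6) to -0.01 (without MWA+2DG replicate 5), with -0.23 without MWA+PBS replicate 3 and -0.03 without replicate 2. The smallest p that 3 samples in each group allow is 0.1. Cd4 was 1.27%, 1.15% and 1.15% of Cd8a in MWA+PBS and 0.454%, 0.432% and 0.469% in MWA+2DG. The 2 groups were well apart, with a log2 difference of -1.40 and the smallest possible exact permutation p of 0.1. After Benjamini-Hochberg adjustment over the 5 ratios computed, the p was 0.8 for the first ratio and 0.25 for the second. The second ratio combines a Cd4 level that fell with a Cd8a level that rose.

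**Figure D2:**
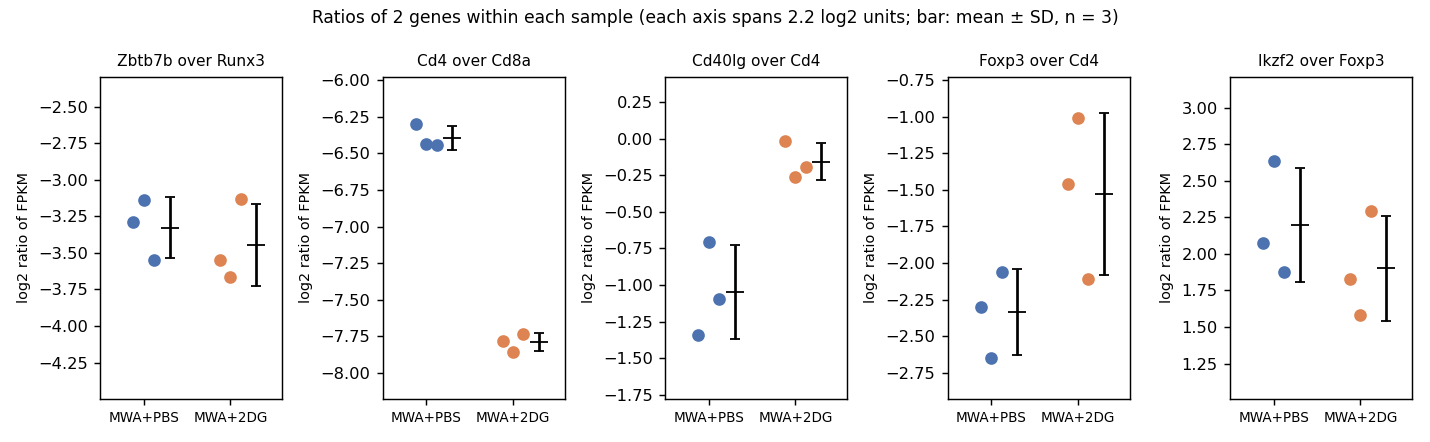
Log2 ratio of the FPKM of 2 genes within each sample, for 5 pairs, in MWA+PBS (blue) and MWA+2DG (orange), with mean ± SD (n = 3). Zbtb7b over Runx3 overlaps between groups, while Cd4 over Cd8a is lower and Cd40lg over Cd4 higher in each MWA+2DG sample than in any MWA+PBS sample.

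Zbtb7b and Runx3 were each lower, and each has more than 1 annotated start, so the bases before these starts are shown. RUNX proteins bind the letters TGTGGT, or ACCACA on the other strand, which are in capitals. The sequences are from RefSeq on GRCm38.p6, hold the 150 bases before each start and read 5′ to 3′ on the gene's strand. The windows of Zbtb7b are chr3:89393379-89393528 and chr3:89387672-89387821 on the minus strand, and those of Runx3 are chr4:135120495-135120644 and chr4:135152395-135152544 on the plus strand. All but the first Runx3 window lie inside the annotated span of their gene.
Zbtb7b, upstream start: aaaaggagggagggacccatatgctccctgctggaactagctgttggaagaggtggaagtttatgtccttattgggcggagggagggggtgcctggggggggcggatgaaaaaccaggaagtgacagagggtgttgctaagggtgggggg
Zbtb7b, internal start: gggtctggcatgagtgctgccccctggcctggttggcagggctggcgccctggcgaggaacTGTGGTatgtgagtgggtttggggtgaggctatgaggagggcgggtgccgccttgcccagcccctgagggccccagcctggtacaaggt
Runx3, distal start: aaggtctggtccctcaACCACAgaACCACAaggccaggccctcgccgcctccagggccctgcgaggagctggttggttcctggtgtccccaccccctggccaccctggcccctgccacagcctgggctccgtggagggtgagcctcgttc
Runx3, proximal start: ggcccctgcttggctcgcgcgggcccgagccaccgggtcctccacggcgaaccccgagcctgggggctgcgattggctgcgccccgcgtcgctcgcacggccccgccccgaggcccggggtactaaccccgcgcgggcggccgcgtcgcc

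The distal Runx3 start was preceded by 2 matches, beginning 134 and 126 bases before it, and the internal Zbtb7b start by 1 match, beginning 89 bases before it. The other 2 windows held no match. The search covered the 250 bases before each start, and no further match lay outside the 150 bases shown. Of all 32851 RefSeq start windows of the same 250 bases, 4614 (14%) held a match. Foxp3 had 2 windows, both without a match, and windows of Cd4, Ikzf2, Cd40lg and Zbtb16 were not analysed here. A match describes the letters only, and the FPKM of a gene does not say which start was used.

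Other regulators of the CD4 and CD8 choice did not share one direction. Of 20 tested, 4 were higher, 3 lower and 13 did not pass, with a median log2 fold change of 0.10 (-0.30 with T scaling). The lower genes were Myb, needed for CD4 cell development, at -0.64, the Groucho corepressor Tle1 at -0.56, and Patz1, a repressor of Zbtb7b, at -0.19. The call of Patz1 was lost with GC and length trends removed. In that fit 6 of the 20 were higher and 2 lower, beside 5516 of 12430 tested genes called, 57.4% of them higher. The 3 largest increases were Id3, an inhibitor of E proteins, at 0.57, the cytokine feedback inhibitor Socs1 at 0.39, and Bcl11b, a guardian of T cell identity, at 0.36 (-0.04 with T scaling). The call of Socs1 was lost with quantile normalization and with median ratio scaling, and that of Birc3, an inhibitor of apoptosis downstream of CD40, with median ratio scaling. Cbfb, the partner of Runx3, had means of 49.5 ± 2.71 FPKM with MWA+PBS and 51.3 ± 2.75 with MWA+2DG (SD, n = 3 each, limma adjusted p = 0.578). Gata3, which acts upstream of Zbtb7b, had means of 7.97 ± 1.28 and 8.91 ± 0.919 FPKM (limma adjusted p = 0.339). T scaling turned both, to -0.36 for Cbfb (limma adjusted p = 0.0035) and -0.22 for Gata3 (0.198). Of 12 tested relatives of the 7 genes by protein family, Ikzf3, the Ikaros family gene for Aiolos, was higher at 0.37 (-0.03 with T scaling) and the other 11 did not pass. With T scaling 10 of the 12 were lower and the other 2 did not pass, beside 57.7% of all tested genes lower, and their median went from -0.02 to -0.34, beside -0.31 over all tested genes. Runx1 was at -0.12 and Zbtb7a at -0.22 on the deposited scale, and both passed with T scaling, at -0.47 and -0.61. Of 11 CD8 lineage genes, 10 were higher and 1 did not pass, with a median of 0.56 (0.15 with T scaling), led by the granzyme gene Gzmk at 1.14, the T-box factor Eomes at 0.97 and Cd8a at 0.66.

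The regulatory T cell genes were then compared. Foxp3 (ENSMUSG00000039521) had FPKM of 0.59, 0.44 and 0.62 with MWA+PBS, against 0.60, 0.77 and 0.41 with MWA+2DG. The MWA+2DG samples spanned both the highest and the lowest of the 6 values. In a limma fit without a filter, which called 18.3% of 28458 genes, its log2 fold change was 0.04, with a 95% interval from -0.23 to 0.30 (adjusted p = 0.856). Its sign varied between fits, since the value was -0.11 with T scaling, -0.02 without MWA+PBS replicate 2 and -0.04 without MWA+2DG replicate 5. Ikzf2 (ENSMUSG00000025997) had FPKM of 2.49, 2.73 and 2.28 with MWA+PBS, against 2.13, 2.31 and 2.01 with MWA+2DG. Its groups overlapped by 1 sample each, MWA+PBS replicate 3 lying below MWA+2DG replicate 5. Its log2 fold change was -0.15 (limma adjusted p = 0.203), with a 95% interval from -0.35 to 0.05.

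Foxp3 over Cd4 was 0.203, 0.159 and 0.239 in MWA+PBS and 0.364, 0.497 and 0.232 in MWA+2DG, a log2 difference of 0.81 with overlap (exact permutation p = 0.2, adjusted 0.333). Ikzf2 over Foxp3 lay between 3.00 and 6.20 in all 6 samples and overlapped widely, with a log2 difference of -0.29 (exact permutation p = 0.4, adjusted 0.5), which leaving out 1 sample took to -0.08 (MWA+PBS replicate 2), -0.14 (MWA+2DG replicate 5), -0.45 (MWA+PBS replicate 3) or -0.49 (MWA+2DG replicate 6). Of 13 tested genes of the regulatory T cell signature, 3 were higher, 3 lower and 7 did not pass, with a median of 0.19. With T scaling 1 was higher and 5 lower (57.7% of all tested genes were lower), with a median of -0.12 beside -0.31 over all tested genes. The higher genes were Tnfrsf18, encoding GITR, at 0.77, Tnfrsf9, encoding the costimulatory receptor 4-1BB, at 0.49, and Izumo1r, encoding folate receptor 4, at 0.39. The lower genes were the ectonucleotidase gene Entpd1 at -0.98, the neuropilin gene Nrp1 at -0.68 and the cytokine subunit gene Ebi3 at -0.64. With GC and length trends removed, 6 of the 13 were higher and 3 lower, with a median of 0.17, beside 5516 of 12430 tested genes called. Entpd1 and Nrp1 are also expressed by macrophages and dendritic cells, and Tnfrsf9 and Tnfrsf18 by activated CD8+ T cells. Il2ra and Ctla4, both strongly expressed by regulatory T cells, did not pass, with log2 fold changes of 0.09 (limma adjusted p = 0.556) and 0.19 (limma adjusted p = 0.229), which T scaling turned to -0.12 and -0.06.

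The helper ligand gene Cd40lg (ENSMUSG00000031132) had FPKM of 1.15, 1.69 and 1.21 with MWA+PBS, against 1.63, 1.29 and 1.55 with MWA+2DG. The highest value of all was in MWA+PBS, and the groups overlapped. Its log2 fold change was 0.09 (limma adjusted p = 0.592), with a 95% interval from -0.19 to 0.37, and it was -0.15 with T scaling. Leaving out 1 sample at a time gave values from 0.03 (without MWA+PBS replicate 1) to 0.19 (without MWA+PBS replicate 2). Cd40lg over Cd4 was 0.395, 0.612 and 0.467 in MWA+PBS and 0.988, 0.832 and 0.876 in MWA+2DG. The ratio was higher in each MWA+2DG sample, with a log2 difference of 0.89 (exact permutation p = 0.1, adjusted 0.25).

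Of 12 other helper T cell genes tested, 5 were higher, 2 lower and 5 did not pass, with a median of 0.23 (-0.10, with 3 higher and 2 lower, under T scaling). Cxcr5, the follicular homing receptor also carried by B cells, was higher at 1.18, Tnfsf8, encoding CD30 ligand, at 0.66 and Cd28, the costimulatory receptor, at 0.59. The lower genes were Maf, a transcription factor shared with macrophages, at -1.60, and the chemokine receptor gene Ccr4 at -0.41. The helper cytokine genes Il4, Il5, Il13, Il17a and Il21 were each listed at 0 in at least 1 sample and lay below the filter. Of 11 tested genes of the CD40 axis, the receptor's adaptor gene Traf1 (0.59), the ICOS ligand gene Icosl (0.42) and Birc3 (0.21, but -0.17 with T scaling) were higher, the costimulatory ligand gene Cd86 was lower at -0.98 and 7 did not pass, with a median of 0.05 (-0.33 with T scaling). Cd40 itself, below the filter, averaged 0.193 ± 0.0289 FPKM with MWA+PBS and 0.470 ± 0.0872 with MWA+2DG (SD, n = 3 each), a change of 0.30 in the limma fit without a filter (adjusted p = 0.0221).

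Zbtb16 (ENSMUSG00000066687) had FPKM of 1.67, 1.32 and 1.69 with MWA+PBS, against 1.01, 1.13 and 0.71 with MWA+2DG, without overlap. The log2 change was -0.40, with an SE of 0.12 and a limma adjusted p of 0.0358, and with a pseudocount of 0.1 in place of 1 it was -0.67. The call was lost without MWA+PBS replicate 1 (adjusted p = 0.107) or 3 (0.101), without MWA+2DG replicate 4 (0.0706) or 6 (0.108), with quantile normalization (0.0653) and without a filter (0.0862). Of 12 other innate-like T cell genes tested, 8 were higher, 3 lower and 1 did not pass, with a median of 0.35 (0.02, with 3 higher and 3 lower, under T scaling). Cxcr6, a chemokine receptor gene of tissue and natural killer T cells, was higher at 1.25, and the IL-18 receptor genes Il18r1 and Il18rap at 0.63 and 0.60. The lower genes were Fcer1g at -1.76, Tmem176b at -0.62 and Tmem176a at -0.37, which myeloid cells also express.

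**Figure D3:**
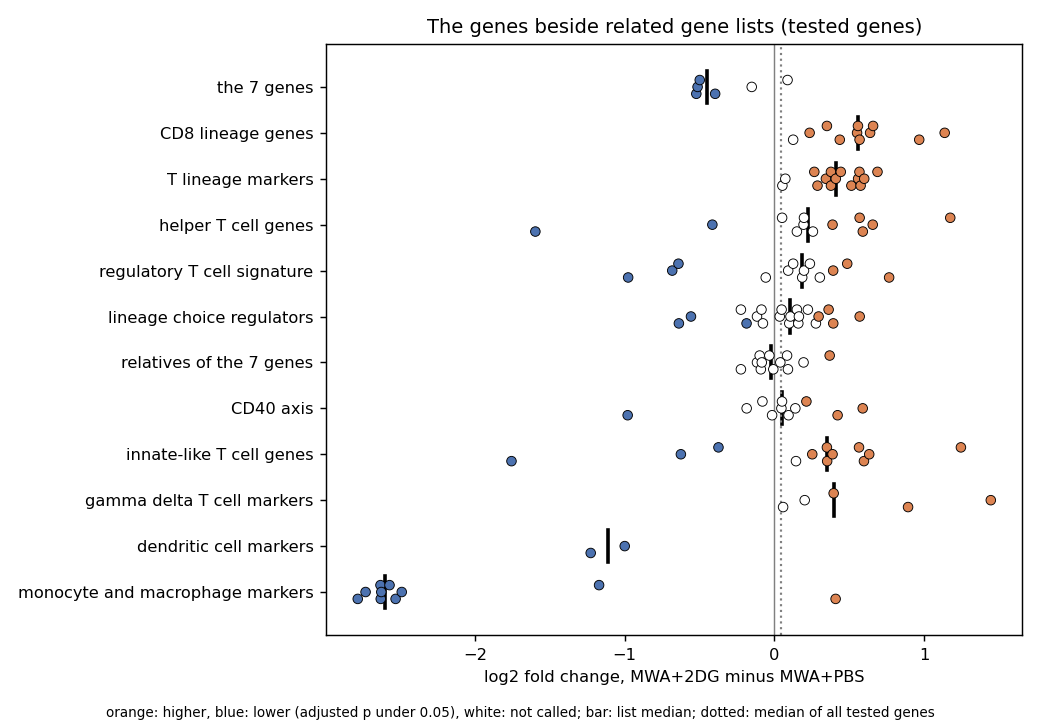
Log2 fold change (MWA+2DG minus MWA+PBS, horizontal axis) of the tested genes of each list shown, 1 point a gene. Points are orange (higher) or blue (lower) where the adjusted p was under 0.05 and white otherwise. The bar is the list median, and the median of all tested genes is dotted. The neutrophil, B cell, natural killer cell, erythroid and platelet markers are not drawn. Of the 7 genes, 4 of the 6 tested are lower, while 10 of 11 CD8 lineage genes are higher (5 of 11 once scaled to T lineage markers) and 9 of 10 monocyte and macrophage markers lower.

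Markers of other cell types were set beside these results. In FPKM summed over the list, T lineage markers ranged from 1626 to 1761 with MWA+PBS and from 2253 to 2440 with MWA+2DG, and 13 of 15 were higher, with a median log2 fold change of 0.41. Cd3e was at 0.38 among them. With T scaling, which is set on these markers, their median was -0.0025 and Cd3e was at -0.03. Monocyte and macrophage markers summed to between 749.3 and 813.2 and between 299.2 and 332.5, with 9 of 10 lower, and Lyz2 higher at 0.41 but at -0.0035 with T scaling. Lyz2 averaged 170.8 FPKM with MWA+PBS and 227 with MWA+2DG, and so made up most of the MWA+2DG sum. Dendritic cell markers, among them those of a CD4-bearing spleen subset, summed to between 9.21 and 10.9 in MWA+PBS and at most 5.02 in MWA+2DG. Both tested genes were lower, Flt3 at means of 2.82 and 0.62 FPKM and Itgax at 4.49 and 1.75. The other listed genes lay below the filter. The subset's marker Clec4a4 was listed at 0 in all but 1 sample, so these values do not show whether that subset changed. Natural killer cell markers, which come from cells that use Runx3, summed to between 49.1 and 55.3 and between 21.5 and 26.9. Both tested genes were lower, Ncr1 and Tyrobp, of which myeloid cells also express the latter. Tyrobp made up most of these sums, at means of 43.5 and 16.9 FPKM, beside 6.54 and 4.92 for Ncr1. The widest shift was in neutrophil markers, which summed to between 63.0 and 86.2 FPKM with MWA+PBS and between 1519 and 1692 with MWA+2DG, with 7 of 8 higher and a median log2 fold change of 4.36. B cell markers summed to between 10.3 and 11.4 and between 45.9 and 50.9, with 6 of 7 higher. Gamma delta T cell markers summed to between 22.3 and 24.97 and between 36.0 and 39.3, with 3 of 5 tested higher. These were Blk at 1.45, Tcrg-C2 at 0.89 and Tcrg-C1 at 0.40 (0.03, not called, with T scaling). Trdc and Tcrg-C4 did not pass, at 0.20 and 0.06, which T scaling turned to -0.14 and, past the threshold, -0.29. Erythroid markers summed to between 287.4 and 343.9 and between 66.5 and 84.0, with 7 of 7 lower, and platelet markers to between 14.8 and 19.5 and between 5.69 and 8.87, with 3 of 4 tested lower. The part of these cells in the levels of Cd4, Zbtb7b, Runx3 and Zbtb16 was not tested.

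With T scaling Cd4 was -0.78, Zbtb7b -0.84, Runx3 -0.93 and Zbtb16 -0.62, and Ikzf2 passed as well, at -0.44 (limma adjusted p = 0.00366). Cd40lg was -0.15 and Foxp3 -0.11, and neither passed. Thus 5 of the 6 tested genes were lower, beside 57.7% of all tested genes. Of the 20 lineage choice regulators 13 were then lower and the other 7 did not pass, of the 11 CD40 axis genes 8 were lower and 1 higher, and of the 11 CD8 lineage genes 5 were higher and 2 lower. Id3, Socs1, Tnfrsf9, Izumo1r and Icosl stayed above 0 without passing.

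Base composition set 2 of the MWA+PBS libraries apart from the other 4. Among the tested genes, the top quartile of GC content stood above the bottom quartile by 0.12 and 0.10 (median log2 deviation from the gene's mean) in MWA+PBS replicates 1 and 3. The same difference was -0.06 in MWA+PBS replicate 2 and between -0.08 and -0.01 in MWA+2DG. Zbtb7b, Runx3, Foxp3 and Zbtb16, whose longest transcripts hold 59.9%, 55.9%, 55.03% and 53.6% GC, each had their lowest MWA+PBS value in replicate 2, while Ikzf2 and Cd40lg, with 40.1% and 44.7%, had their highest there. Cd4, with 52.03% GC, did not follow this and was lowest in MWA+PBS replicate 3. With GC and length trends removed, the log2 fold changes were -0.47 for Cd4, -0.44 for Zbtb7b, -0.46 for Runx3 and -0.33 for Zbtb16, and all 4 remained called, at limma adjusted p of 0.00194, 0.00617, 0.0310 and 0.0478. Ikzf2 was then -0.22, with an adjusted p of 0.0572.

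**Figure D4:**
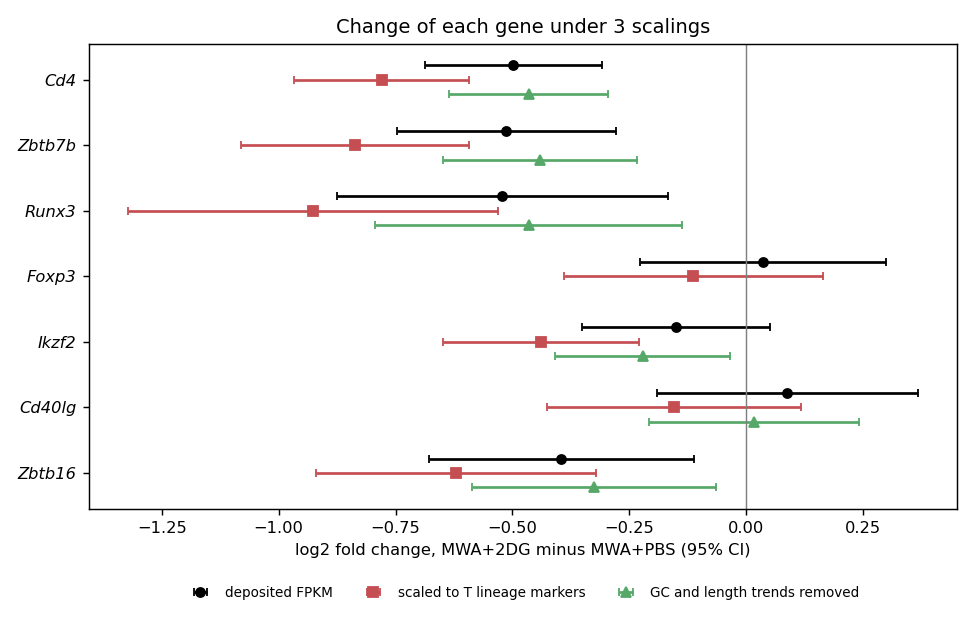
Log2 fold change (MWA+2DG minus MWA+PBS) with its 95% interval for each gene, from the deposited FPKM (black circles), after scaling to T lineage markers (red squares) and after removal of GC and length trends (green triangles, not computed for Foxp3). Cd4, Zbtb7b, Runx3 and Zbtb16 are below 0 on each scale, while the black and red points of Cd40lg and Foxp3 lie on different sides of 0.

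The tested genes whose log2(FPKM + 1) followed each gene most closely over the 6 samples are given as a description only, since the samples share their groups. For Cd4 they were Alas2, a heme synthesis gene and erythroid marker, and the prion protein gene Prnp (both Pearson r = 0.998). For Runx3 they were the cytokine gene Tgfb1 and AC124513.1 (both 0.998), for Zbtb7b Csrnp1 (0.994) and Mapre2 (0.993), and for Zbtb16 Tbkbp1 (0.992) and Gda (0.990). For Ikzf2 they were Dnaja3 (0.994) and Nlrc4 (0.993), and for Cd40lg the ribosomal protein pseudogene Rpl7a-ps11 (0.988) and Gm8226 (0.986).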

How the data were processed

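Poly(A) RNA of the 6 samples was sequenced. The authors mapped the reads with HISAT2 2.0.4 and computed FPKM with StringTie 1.3.4d and ballgown. The submitters' processing notes also name cutadapt 1.9, UMI-tools and the build mm9, while the study's methods name fastp; for the annotation these sources name no release. The deposited FPKM values have 2 decimals and hold no read counts. Depth is therefore unknown, and counting error could not be computed. FPKM totals lay between 291800 and 313260, and 22414 to 23340 genes were above 0. No batch is named in the labels, and any that coincided with treatment cannot be told apart from it.

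Symbols were found for 28689 of 28773 IDs in the GENCODE M21 gene table. Genes with a mean FPKM of at least 1 were fitted as log2(FPKM + 1) in limma 3.58.1 (R 4.3.3, eBayes with a trend, no covariates, two-sided, Benjamini-Hochberg over all 12444 genes). Fold changes are MWA+2DG minus MWA+PBS. Called means an adjusted p under 0.05; counts by the study's thresholds (P under 0.05, log fold change beyond 0.25, its base not stated and taken as log2) were an alternative. The fit was tested on simulated data. Ratios used an exact permutation test in scipy 1.17.1. The longest GENCODE M21 transcript of a gene gave its length and GC content. Foxp3 was fitted without a filter.

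The 7 genes and the 16 lists, 7 of related genes and 9 of cell type markers, were chosen with earlier results of these data known, and some genes are in more than 1 list. Named genes were the 7 genes and, of each list of related genes, the called ones with up to 3 largest increases and 3 largest decreases, and the T cell markers Cd3e, Cd8a and Cd8b1. For each tested one of the 7 genes, the 2 genes with the highest Pearson r were named too. Cbfb, Gata3, Runx1, Zbtb7a, Il2ra, Ctla4, Cd40, Clec4a4, Lyz2, Ncr1, Tyrobp and the helper cytokine genes were named for their roles, outside this rule, after their values were seen. Flt3, Itgax and the tested gamma delta T cell markers were named as members of their lists, also after their values were seen.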

Additional observations from a re-analysis of the deposited data

How the results depend on the processing

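The removal of GC and length trends, the fit without a filter at a pseudocount of 0.1, and the further fits of Foxp3 were chosen after seeing the data. Genes called numbered 4907, of which 56.5% were higher; with a mean FPKM of at least 5 there were 2951 of 7313 tested, and with scaling to T lineage markers 7836, of which 8.4% were higher. Of the 7 genes, 4 were called. Without a filter, at a pseudocount of 1 or of 0.1, 2 were called, Cd4 and Zbtb7b. With a mean FPKM of at least 5, 1 was tested and called, Runx3. Leaving out each sample gave 2 to 4. Scaling to T lineage markers reversed Cd40lg (-0.15) and Foxp3 (-0.11), as it lowers every gene. Leaving out each sample gave -0.0435 to 0.12 for Foxp3. Quantile normalization took the log2 difference of Cd4 over Cd8a from -1.40 to -1.25. The cause of the other changes was not tested. Without read counts, the share of the spread due to depth is unknown, most of all for Foxp3, Zbtb16 and Cd40lg, the lowest of the 7 genes. No paired analysis was possible because sample numbers are not shared between the groups.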
